A study of Homo sapiens with 12 samples.

Results

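An siRNA against EP300 was compared with a control siRNA in naive human embryonic stem cells, over every gene that averaged 1 FPKM or more in the 6 libraries concerned. FPKM counts fragments per length of the gene and per size of the library. The rule kept 13207 of 62753 genes, among them 10944 protein-coding genes and 1169 long non-coding RNA genes. Of the 49546 genes left out, 24955 were listed at 0 in all 6 libraries. There were 348 genes just inside the minimum, with a mean of 1 to 1.1 FPKM, and 431 just outside it, with a mean of 0.9 to 1. EP300 is a histone acetyltransferase and transcriptional coactivator that acts at enhancers and promoters, and CREBBP is its close relative. Naive cells correspond to the pluripotent cells of the early embryo before implantation, and primed cells to a later stage.

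The cells were H9, an established human embryonic stem cell line, in PXGL medium. This medium holds the MEK inhibitor PD0325901, the tankyrase inhibitor XAV939, the protein kinase C inhibitor Go6983 and human LIF, and the cells sit on a layer of mouse embryonic fibroblasts. Each of the 4 groups has 3 libraries. They are siP300 (genotype label EP300 knockdown), siP300+OGA (genotype label OGA overexpression, with the EP300 siRNA in the title), siOGA (OGA knockdown) and siNC (control siRNA, genotype label WT). All groups are given the same medium and feeders. The sources used here give neither the time after transfection nor the OGA construct of the siP300+OGA libraries. No label tells if the 3 libraries per group were grown as separate cultures. The p-values therefore measure only the spread between these samples, which may be technical.

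The libraries were made from poly(A) RNA and held 16885608 to 18202764 reads in genes in siP300, against 16834847 to 17867613 in siNC, as recovered from the deposited values. Mitochondrial genes took 7.73% to 7.93% of those reads in siP300 and 5.25% to 6.0% in siNC. Within a group the median standard deviation of a gene was 0.0735 on the log2(FPKM + 1) scale, on which all differences below are given as siP300 minus siNC. That scale understates the change of genes with low values. No 2 libraries of a group were identical, and the chi-square per degree of freedom between them was 2.31 to 4.41.

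EP300 itself (ENSG00000100393, chr22:41092592-41180077, plus strand, GRCh38) had 13.2, 13.4 and 13.3 FPKM in siP300, against 23.1, 23.6 and 23 FPKM in siNC. The groups did not overlap, and siP300 held 57.2% of the siNC mean (log2 difference −0.76 ± 0.0286 SE, adjusted p = 2.01e-09). CREBBP (ENSG00000005339, chr16:3725054-3880713, minus strand) had 13.8, 14.5 and 14.5 FPKM in siP300, against 9.65, 10.1 and 9.83 FPKM in siNC. It was higher in every siP300 library, by 0.49 ± 0.0323 SE (adjusted p = 1.64e-07).

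The labelled cell type was checked against its markers. All 7 naive or general pluripotency markers (KLF17, DPPA5, SUSD2, DNMT3L, NANOG, POU5F1 and SOX2) were expressed in siP300 and all 7 were lower there. Their summed level was 744 to 763 FPKM in siP300 and 1482 to 1507 FPKM in siNC. It was 1035 to 1232 FPKM in siOGA and 1038 to 1067 FPKM in siP300+OGA. A sum below that of siNC was thus not particular to siP300, where it was lowest. The 4 primed markers (ZIC2, SFRP2, THY1 and FZD7) were all higher, with sums of 45.9 to 47.0 FPKM in siP300 and 3.14 to 3.98 FPKM in siNC. Of these, ZIC2, SFRP2 and THY1 averaged under 1 FPKM in siNC and reached the minimum only through their level in siP300. The sum was 60.1 to 64.9 FPKM in siOGA and 46.0 to 50.1 FPKM in siP300+OGA, so it was not particular to siP300. In bulk RNA, fewer cells of a type and less RNA per cell cannot be told apart.

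In all, 8734 genes passed an adjusted p under 0.05, which is 66.1% of those tested. Higher in siP300 were 4025 genes (30.5%) and lower were 4709 (35.7%). At least 1 log2 unit separated the groups for 635 higher genes (4.81%) and 396 lower genes (3.0%), and at least 2 units for 77 higher and 27 lower genes. The 3 siP300 and 3 siNC values did not overlap in 71.0% of genes, so calls are given beside their size. The siP300 and siNC values of every gene said below to rise or fall did not overlap. For 2260 genes (17.1%) the 95% interval of the difference lay within 0.25 of 0. The median difference over all genes was −0.04.

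**Figure D1:**
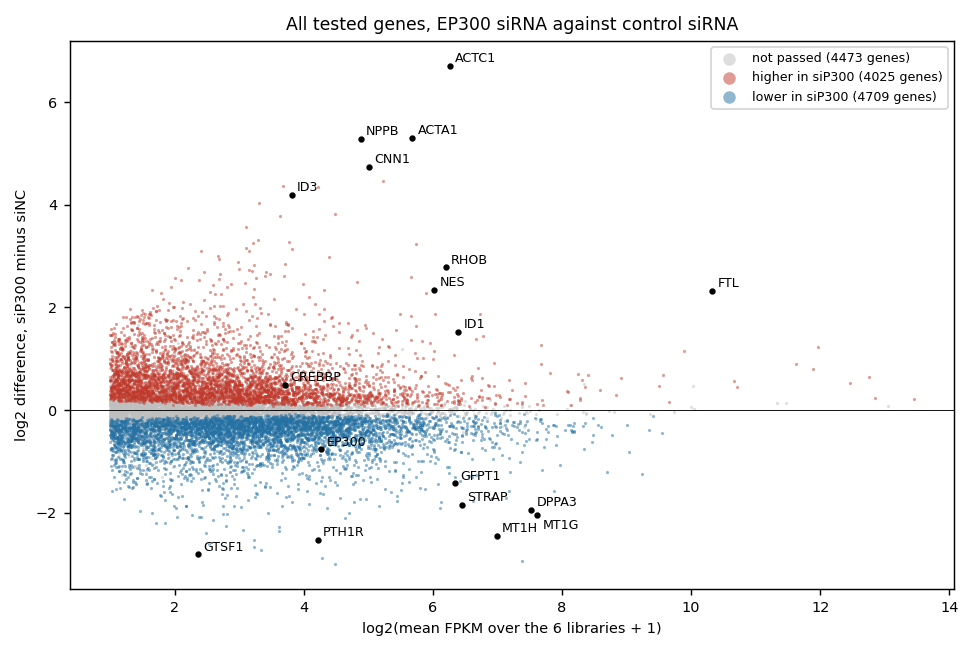
Every tested gene by its mean level (x axis, log2 of the mean FPKM over the 6 libraries + 1) and its log2 difference, siP300 minus siNC (y axis). Red points were higher (4025 genes), blue points lower (4709) and grey points did not pass (4473). The highest points are muscle-type actin genes, and the ferritin gene FTL stands out among abundant genes.

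The direction of the calls differed with the level of the gene. Of the 250 genes that averaged 100 FPKM or more, 26.4% were higher and 54.0% lower, with a median of −0.19. Of the 2670 genes with a mean of 1 to 2 FPKM, 30.6% were higher and 21.6% lower, with a median of 0.05. Genes of transcription factor families, as the deposited table marks them, had 356 of 943 higher and 266 lower (median 0.05), while the other 12264 genes had 3669 higher and 4443 lower (median −0.05). Among the families, the bHLH group had 24 of 47 higher and 12 lower, the bZIP group, to which JUN and FOS belong, 22 of 43 higher and 10 lower, and the ZBTB group 21 of 40 higher and 9 lower. The C2H2 zinc fingers had 158 of 501 higher and 129 lower. Some families had more genes lower than higher. The MYB family had 7 of 25 higher and 11 lower, the ETS family 5 of 16 higher and 7 lower, and the THAP family 1 of 11 higher and 4 lower. A gene could reach the minimum through 1 group alone. This held for 714 genes that averaged under 1 FPKM in siNC and 495 that did so in siP300, so counts for lists with such members are also given below for those with a mean of at least 1 FPKM in both groups. Over all genes with such a mean in both groups, 3445 of 11998 were higher and 4375 lower (median −0.05).

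The largest rises were those of actins and other contractile genes. Muscle-type actins and the proteins that bind them, calponin, transgelin, caldesmon and tropomyosin, build the contractile filaments of muscle. Many of their genes are controlled by the serum response factor SRF with its MRTF coactivators, through a promoter sequence called the CArG box. YAP with TEAD factors is a further regulator that responds to cell shape and contact. ACTC1, the cardiac actin gene (ENSG00000159251, chr15:34790107-34795589, minus strand), had 149.7, 150.2 and 152 FPKM in siP300, against 0.553, 0.275 and 0.529 FPKM in siNC, a log2 difference of 6.71 ± 0.0746 SE (adjusted p = 6.77e-13).

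Promoter sequence is shown for 5 of the genes that follow, since these genes are well-known targets of SRF (ACTC1, ACTA1 and ACTG2) or of YAP and TEAD (ANKRD1 and CCN2) and all 5 were higher in siP300. The lines give 120 bases, from 140 to 21 bases before the RefSeq start (GRCh38.p14), on the strand of the gene. Capitals mark matches, on either strand, to the CArG box, to TATAAA and to GGAATG, the motif of TEAD factors.
ACTC1, chr15:34795570-34795689, minus strand: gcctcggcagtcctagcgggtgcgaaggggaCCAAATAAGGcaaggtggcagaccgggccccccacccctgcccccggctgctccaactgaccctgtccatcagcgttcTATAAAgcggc
ACTA1, chr1:229434115-229434234, minus strand: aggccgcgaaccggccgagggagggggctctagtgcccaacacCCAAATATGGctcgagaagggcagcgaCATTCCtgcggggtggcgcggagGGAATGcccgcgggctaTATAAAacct
ACTG2, chr2:73892868-73892987, plus strand: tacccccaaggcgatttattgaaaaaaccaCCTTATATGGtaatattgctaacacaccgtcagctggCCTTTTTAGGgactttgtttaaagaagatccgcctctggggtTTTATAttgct
ANKRD1, chr10:90921108-90921227, minus strand: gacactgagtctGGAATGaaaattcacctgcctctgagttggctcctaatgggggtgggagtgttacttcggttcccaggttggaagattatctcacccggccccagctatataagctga
CCN2, chr6:131951393-131951512, minus strand: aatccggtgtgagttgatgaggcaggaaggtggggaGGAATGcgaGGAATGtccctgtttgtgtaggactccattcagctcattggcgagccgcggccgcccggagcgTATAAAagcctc
The CArG box of ACTC1 begins 109 bases before the start, that of ACTA1 97 bases, and those of ACTG2 110 and 73 bases. Both TEAD motifs of CCN2 (104 and 95 bases) are on the strand of the gene, as is that of ANKRD1 (128 bases). Older gene models, such as those of the deposited table, place the start of some of these genes elsewhere.

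Both strands of the 250 bases before each RefSeq start were searched, and the CArG box and TATAAA can share letters. A CArG box was found in 1.14% of all 27305 promoters in the table. It was found in 0.995% of those of tested genes, in 4 of 55 (7.27%) for genes that rose by at least 2, in 9 of 432 (2.08%) for those that rose by at least 1, and in 3 of 204 (1.47%) for those that fell by at least 1. The contractile genes had it in 5 of 15 promoters and the cytoskeletal SRF targets in 6 of 21. GGAATG was found in 11.9% of all promoters, in 9.08% of those of tested genes, and in 7 of 55 (12.7%) for genes that rose by at least 2. It was found in 55 of 432 (12.7%) for those that rose by at least 1, in 23 of 204 (11.3%) for those that fell by at least 1, and in 6 of 18 for the YAP targets. TATAAA was found in 11.1% of all. For the lists, all members with a promoter were searched, also those under the minimum, so the numbers differ from those tested. The lists hold known targets, so matches there were likely in advance and do not bear on the knockdown. A match is a string of letters, not evidence of binding.

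Besides ACTC1, ACTA1, the skeletal actin gene, had 101, 96.9 and 99.6 FPKM in siP300, against 1.3, 1.63 and 1.66 FPKM in siNC (log2 difference 5.31), and ACTG2, the actin of intestinal smooth muscle, had 17.5, 18.2 and 17.3 FPKM in siP300, against 0.10, 0.177 and 0.137 FPKM in siNC (4.04). The siP300 values exceeded every siNC value by a wide margin for all 3 genes. Actin genes are alike over long stretches, and their reads may be shared out between them. ACTC1 also overlaps an antisense gene, and no source used here states the strand setting of the counting. CNN1, calponin of smooth muscle, had 62.5, 60.0 and 60.5 FPKM in siP300, against 1.34, 1.48 and 1.13 FPKM in siNC (4.74). MYL9, a regulatory light chain of myosin, had 74.9, 69.2 and 68.7 FPKM in siP300, against 2.11, 2.5 and 2.13 FPKM in siNC (4.47). TAGLN, transgelin, had 35.4, 34.8 and 33.2 FPKM in siP300, against 0.957, 0.762 and 0.551 FPKM in siNC (4.34). None of these genes reached 3 FPKM in any siNC library.

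Of 13 contractile genes tested, 11 rose, 1 fell and 1 did not pass (median 1.97), and 10 more were below the minimum. Leaving out 4 genes that averaged under 1 FPKM in siNC, 7 of 9 rose and 1 fell (median 1.66). The tropomyosins TPM1 (19.5, 19.6 and 19.9 FPKM in siP300, against 5.39, 5.50 and 5.47 FPKM in siNC) and TPM2 (1.66) and caldesmon CALD1 (1.65) rose. The atrial light chain MYL7 had 3.66, 2.65 and 2.51 FPKM in siP300 and was listed at 0 in all siNC libraries, so no fold is given. Desmin, DES, the intermediate filament of muscle, went the other way, with 1.12, 1.46 and 1.85 FPKM in siP300, against 2.43, 2.46 and 2.57 FPKM in siNC (−0.50).

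Defining markers of cardiac and skeletal muscle stayed low in both groups. The 6 markers of cardiac and skeletal muscle (TNNT2, TNNI1, MYH6, MYH7, NKX2-5 and DES) summed to 2.07 to 2.72 FPKM in siP300 and 2.52 to 2.74 FPKM in siNC, with DES, which fell, the highest. NKX2-5, a cardiac transcription factor, had 0.734, 0.628 and 0.695 FPKM in siP300, against 0.239, 0.0274 and 0.0284 FPKM in siNC. The troponins TNNT2 (0.0896 to 0.113 FPKM in siP300, against 0 to 0.0372 FPKM in siNC) and TNNI1 (0.0804 to 0.172 FPKM in siP300, against 0.0291 to 0.0311 FPKM in siNC) were also higher in every siP300 library, and all 3 were under the minimum. MYH6 and MYH7, the cardiac myosin heavy chains, were below 0.01 FPKM in every siP300 library. The 3 smooth muscle markers (MYH11, LMOD1 and ACTA2) were under the minimum and summed to 1.59 to 1.79 FPKM in siP300, against 0.168 to 0.287 FPKM in siNC.

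**Figure D2:**
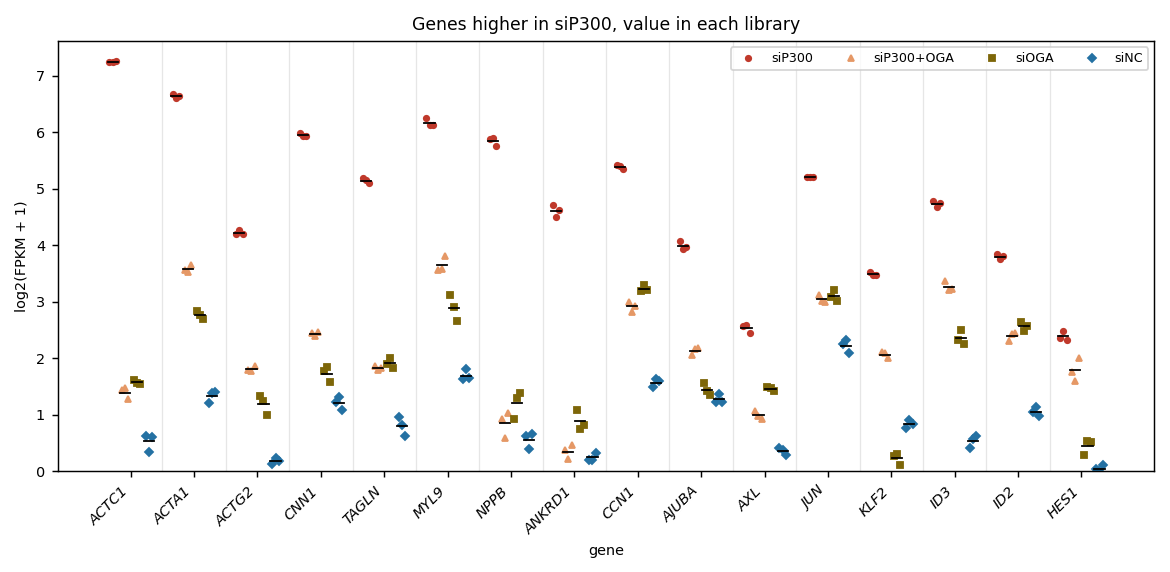
Level of 16 genes that were higher in siP300, as log2(FPKM + 1) on the y axis, with 1 point per library and a bar at the mean of each group of 3. For every gene the 3 siP300 points lie above the 3 siNC points, as with ACTC1 at 152 FPKM or less in siP300, against at most 0.553 FPKM in siNC.

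The targets of SRF that non-muscle cells use for their actin cytoskeleton were higher in nearly all cases. Of 22 tested, 21 rose and 1 fell (median 0.81), and of 20 above 1 FPKM in both groups 19 rose. FLNC, which crosslinks actin filaments, had 85.9, 87.1 and 85.8 FPKM in siP300, against 13.2, 14.6 and 12.7 FPKM in siNC (2.59). The abundant β-actin gene ACTB had 1314, 1299 and 1309.6 FPKM in siP300, against 585, 603 and 582 FPKM in siNC (1.15), and vinculin, VCL, which links actin to adhesions, had 69.7, 72.3 and 70.7 FPKM in siP300, against 32.3, 32.5 and 32.5 FPKM in siNC (1.1). SRF itself rose by 0.28 (adjusted p = 0.00126) and its coactivator MRTFA by 0.24. The one that fell was TPM3, another tropomyosin, by 0.13, a call that quantile normalization and the removal of regional medians ended. RHOB, a small GTPase that acts on the actin cytoskeleton, was among the abundant genes with the largest rises, with 130.3, 124 and 128 FPKM in siP300, against 17.1, 18.2 and 17.7 FPKM in siNC (2.78 ± 0.0331 SE, adjusted p = 7.84e-13). TUBA1A, an α-tubulin, had 103, 103 and 101 FPKM in siP300, against 28.0, 26.4 and 27.7 FPKM in siNC (1.86).

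Genes known as targets of YAP and TEAD also rose. ANKRD1, a nuclear and sarcomeric repeat protein, had 25.2, 21.6 and 23.7 FPKM in siP300, against 0.152, 0.157 and 0.260 FPKM in siNC (4.36). CCN1, a secreted matrix protein, had 41.8, 41.1 and 39.6 FPKM in siP300, against 1.81, 2.09 and 2.03 FPKM in siNC (3.81), and its relative CCN2 had 32.6, 31.9 and 33.4 FPKM in siP300, against 8.34, 9.19 and 8.14 FPKM in siNC (1.82). AJUBA, a LIM protein that binds LATS kinases, had 15.9, 14.3 and 14.6 FPKM in siP300, against 1.34, 1.6 and 1.35 FPKM in siNC (2.71), and the receptor kinase AXL had 4.94, 5.01 and 4.49 FPKM in siP300, against 0.329, 0.306 and 0.227 FPKM in siNC (2.17). No siP300 value overlapped a siNC value in these 5 genes. Of 17 tested, 13 rose, 2 fell and 2 did not pass (median 1.29), and above 1 FPKM in both groups 11 of 15 rose. F3, tissue factor, ran against the others with 10.52, 11.7 and 11.7 FPKM in siP300, against 42.7, 39.9 and 42.9 FPKM in siNC (−1.80), and ASAP1 fell by 0.55. IGFBP3 (0.11) and GADD45A (0.08) did not pass.

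Of the pathway itself, 9 of 16 components rose and 5 fell (median 0.33), and above 1 FPKM in both groups 8 of 15 rose. The coactivator YAP1 had 30.7, 31.4 and 34.0 FPKM in siP300, against 15.7, 16.2 and 17.2 FPKM in siNC (0.92), and the DNA-binding partner TEAD3 had 16.1, 15.7 and 16.3 FPKM in siP300, against 3.82, 3.61 and 3.61 FPKM in siNC (1.87). WWTR1, which encodes the YAP relative TAZ, fell by 0.57, and the kinase cofactors MOB1A and MOB1B fell by 0.60 and 0.54. The kinases LATS1 (0.60) and LATS2 (1.29) rose.

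Immediate-early genes, which cells switch on within minutes of a stimulus, had 14 of 15 higher and 1 not passed (median 0.81). Above 1 FPKM in both groups 10 of 11 rose. JUN, a subunit of the factor AP-1, had 35.9, 36.2 and 36.2 FPKM in siP300, against 3.76, 4.03 and 3.29 FPKM in siNC (2.99). KLF2, a Krüppel-like factor, had 10.6, 10.2 and 10.2 FPKM in siP300, against 0.715, 0.876 and 0.784 FPKM in siNC (2.66), and KLF6 had 19.7, 19.8 and 18.4 FPKM in siP300, against 4.97, 5.48 and 5.20 FPKM in siNC (1.71). FOSL1, a FOS relative, had 2.75, 2.76 and 2.58 FPKM in siP300, against 0.115, 0.0297 and 0 FPKM in siNC (1.82). The phosphatase DUSP1 rose by 1.39 and MYC by 0.71. IER2 did not pass (0.09), and EGR1, with 0.717 FPKM in siP300 and 0.222 FPKM in siNC, was under the minimum.

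Genes that report FGF and ERK signalling gave a divided result in a medium that inhibits MEK, with 7 of 10 higher and 2 lower (median 0.66). Of those above 1 FPKM in both groups 5 of 8 rose. SPRED1 (1.39) and PHLDA1 (1.22) rose, while ETV4, an ETS factor, had 7.68, 7.89 and 7.88 FPKM in siP300, against 18.4, 19.8 and 17.4 FPKM in siNC (−1.15) and SPRY2 fell by 0.46. DUSP6, a phosphatase induced by ERK, was under the minimum.

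Targets of BMP signalling were higher as well. BMP ligands act through receptors and the SMAD1 and SMAD5 proteins and switch on the ID genes, which block bHLH factors. ID3 had 26.5, 24.6 and 25.8 FPKM in siP300, against 0.328, 0.488 and 0.545 FPKM in siNC (4.20), ID2 had 13.3, 12.5 and 13.1 FPKM in siP300, against 1.08, 1.19 and 0.973 FPKM in siNC (2.75), and the abundant ID1 had 126, 121 and 125 FPKM in siP300, against 42.2, 41.3 and 43.3 FPKM in siNC (1.53). Of 10 targets tested, 8 rose and 1 fell (median 1.38), and above 1 FPKM in both groups 4 of 6 rose. The one that fell was the inhibitor SMAD7 (−0.32). Of the ligands, BMP4 had 12.8, 11.3 and 12.3 FPKM in siP300, against 5.21, 4.69 and 3.87 FPKM in siNC (1.24) and BMP7 rose by 0.38. SMAD1 rose by 0.71, whereas SMAD5 (0.16) and the receptor BMPR1A (−0.08) did not pass and the receptor ACVR1 fell by 0.35. NPPB, the precursor of the heart hormone BNP, belongs to none of these lists and had 57.8, 58.6 and 53.2 FPKM in siP300, against 0.539, 0.317 and 0.575 FPKM in siNC (5.29).

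Trophectoderm genes, those of the outer layer of the blastocyst, had 8 of 11 higher and 2 lower (median 1.3), and 11 more were under the minimum. Above 1 FPKM in both groups 5 of 7 rose. KRT18 had 70.0, 69.8 and 69.1 FPKM in siP300, against 19.3, 18.0 and 17.5 FPKM in siNC (1.88) and its partner keratin KRT8 had 79.7, 76.4 and 77.3 FPKM in siP300, against 21.2, 22.8 and 19.9 FPKM in siNC (1.83). GATA2 (2.98 FPKM in siP300 and 0.449 FPKM in siNC) and GATA3 (2.21 FPKM in siP300 and 0.301 FPKM in siNC) rose but stayed low. CDX2 averaged 0.104 FPKM in siP300 and 0.0593 FPKM in siNC. The 5 trophectoderm markers (CDX2, GATA3, TFAP2A, KRT7 and CGA) summed to 12.6 to 14.1 FPKM in siP300, against 2.04 to 2.27 FPKM in siNC, most of it from CGA. The 3 amnion markers (ISL1, GABRP and VTCN1) stayed under the minimum in both groups, with sums of 0.466 to 0.835 FPKM in siP300 and 0.643 to 0.857 FPKM in siNC.

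Epithelial junction genes were higher in 13 of 17 cases and lower in 2 (median 0.63), and above 1 FPKM in both groups 12 of 16 rose. The claudins, which seal tight junctions, had the largest rises, with 19.3, 15.7 and 16.5 FPKM in siP300, against 1.97, 1.67 and 2.28 FPKM in siNC for CLDN3 (2.61). CLDN7 rose by 1.56, and the adhesion protein EPCAM had 157, 162 and 161 FPKM in siP300, against 57.2, 57.3 and 59.0 FPKM in siNC (1.45). JUP, plakoglobin, rose by 1.46. The junction protein F11R had 37.5, 36.8 and 36.7 FPKM in siP300, against 74.4, 72.3 and 75.6 FPKM in siNC (−0.98).

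Genes linked to mesenchymal cells had 6 of 8 higher and 2 lower, but 4 of the 8 averaged under 1 FPKM in siNC. Above 1 FPKM in both groups 2 of 4 rose and 2 fell. CDH2, N-cadherin, had 3.52, 3.63 and 3.56 FPKM in siP300, against 0.438, 0.451 and 0.353 FPKM in siNC (1.69). The repressor SNAI1 fell by 0.41, and ZEB1, ZEB2 and SNAI2 were under the minimum, at most 0.217 FPKM on average in siP300. Of 8 genes in a longer fibroblast list 5 rose and 2 fell (median 0.55), and above 1 FPKM in both groups 4 of 7 rose and 2 fell (median 0.17). Of 6 defining fibroblast markers 2, the collagen genes COL1A1 and COL1A2, were tested and both rose. The marker sum was 29.9 to 31.1 FPKM in siP300 and 4.75 to 5.35 FPKM in siNC, while DCN, decorin, was at 0 in every siP300 library. The part of other cells in these values was not tested.

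Genes of integrins, which are receptors for the matrix, and of laminins, which belong to it, were higher in 10 of 15 cases and lower in 4 (median 0.51). Above 1 FPKM in both groups 7 of 12 rose and 4 fell (median 0.30). ITGA5, the fibronectin receptor subunit, had 7.5, 7.78 and 8.03 FPKM in siP300, against 1.39, 1.74 and 1.28 FPKM in siNC (1.83), and ITGB1, the common β-subunit, rose by 0.82. LAMA1, a chain of the laminin of the early embryo, fell, with 3.26, 3.36 and 3.29 FPKM in siP300, against 9.50, 9.77 and 9.27 FPKM in siNC (−1.29). ANXA1 and ANXA3, calcium-dependent membrane-binding proteins, rose by 2.89 and 2.58, while S100A14 fell by 0.96. NES, nestin, an intermediate filament of progenitor cells, had 110.1, 109 and 104 FPKM in siP300, against 20.04, 21.7 and 19.7 FPKM in siNC (2.34). The neural regulators PAX6 and SOX1 were under 0.1 FPKM in every library of both groups.

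Among other signalling lists, NOTCH genes had 7 of 12 higher and 3 lower (median 0.49), and above 1 FPKM in both groups 6 of 11 rose. HES1, the classic NOTCH target, had 4.13, 4.62 and 4.04 FPKM in siP300, against 0.0265, 0 and 0.0848 FPKM in siNC (2.34), HES4 rose by 1.08 and the ligand DLL1 by 1.05. HEY2, another target, fell, with 10.3, 9.84 and 9.73 FPKM in siP300, against 19.1, 20.1 and 20.4 FPKM in siNC (−0.93), and the ligand JAG1 fell by 0.53. In the NODAL pathway 3 of 12 genes rose and 5 fell, and above 1 FPKM in both groups 2 of 11 rose and 5 fell. NODAL (−0.19) and LEFTY2 (0.04) did not pass, while the ligand GDF3 had 44.3, 44.5 and 42.1 FPKM in siP300, against 151, 143 and 158 FPKM in siNC (−1.76) and the coreceptor TDGF1 had 114, 118 and 117 FPKM in siP300, against 361, 339.6 and 352 FPKM in siNC (−1.58). Of 7 WNT targets, 3 rose and 3 fell, and above 1 FPKM in both groups 2 of 6 rose and 3 fell. AXIN2, the most general of these targets, fell by 0.65 and CCND1, cyclin D1, had 48.2, 49.3 and 49.5 FPKM in siP300, against 16.3, 17.1 and 16.6 FPKM in siNC (1.5). FZD2, a WNT receptor, had 14.4, 14.4 and 15.6 FPKM in siP300, against 0.231, 0.371 and 0.385 FPKM in siNC (3.57).

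LIF in the medium signals through LIFR, IL6ST and STAT3. Of 12 genes of this axis 3 rose and 7 fell (median −0.23). The feedback inhibitor SOCS3 had 7.37, 6.88 and 7.45 FPKM in siP300, against 1.97, 2.20 and 1.53 FPKM in siNC (1.51), and SOCS1 rose by 1.03. STAT3 fell by 0.33, IL6ST by 0.55 and the kinase PIM1 by 0.90, and LIFR did not pass (−0.10).

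Markers of the naive state were lower in 19 of 20 cases (median −1.16), and in 18 of 19 above 1 FPKM in both groups. FGF4, a growth factor made by pluripotent cells, had 55.6, 55.9 and 55.2 FPKM in siP300, against 182, 179.9 and 189 FPKM in siNC (−1.71). NLRP7, an abundant maternal-effect gene, had 359.7, 362 and 353 FPKM in siP300, against 864, 851 and 848 FPKM in siNC (−1.25), and DPPA5 had 258, 244 and 242 FPKM in siP300, against 565, 559.7 and 605 FPKM in siNC (−1.21). TFCP2L1, a transcription factor of the naive network, fell by 1.15 and TFAP2C by 0.89. The smallest falls were those of KLF5 and OLAH, both by 0.45. KHDC3L, another maternal-effect gene, was the one member to rise, with 138, 127 and 128 FPKM in siP300, against 74.9, 71.9 and 75.4 FPKM in siNC (0.82).

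Core pluripotency factors had 9 of 12 lower and 2 higher (median −0.45). PRDM14 had 45.3, 44.0 and 48.2 FPKM in siP300, against 117, 114 and 114 FPKM in siNC (−1.31) and LIN28B fell by 0.95, whereas LIN28A did not pass (321, 321 and 303 FPKM in siP300, against 317, 332 and 326 FPKM in siNC, −0.04). SALL2 ran the other way, with 27.8, 28.1 and 28.6 FPKM in siP300, against 5.84, 6.04 and 6.04 FPKM in siNC (2.06). Of 15 primed markers 12 rose and 3 fell (median 0.69), and above 1 FPKM in both groups 7 of 10 rose. USP44 had 18.0, 18.3 and 17.9 FPKM in siP300, against 3.25, 3.18 and 3.36 FPKM in siNC (2.16), while DNMT3B, which is also high in naive cells, had 162, 161 and 158 FPKM in siP300, against 342, 346 and 325 FPKM in siNC (−1.07). OTX2, a factor of the primed state, rose by 0.61, and ZIC2 (1.70 FPKM in siP300 and 0.680 FPKM in siNC) rose by 0.69 and stayed low.

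Germline genes expressed in naive cells were lower in all 5 tested cases, 2 of them above 1 FPKM in both groups, with 14 more under the minimum. GTSF1, a factor of the piRNA pathway, had 0.287, 0.266 and 0.282 FPKM in siP300, against 8.94, 6.94 and 8.07 FPKM in siNC (−2.81), the largest fall of any protein-coding gene tested. HORMAD1, a meiotic chromosome protein, had 6.98, 5.85 and 6.53 FPKM in siP300, against 25.9, 22.8 and 27.6 FPKM in siNC (−1.83), and SYCP3 fell by 1.14. Genes of the 8-cell stage, such as ZSCAN4 and LEUTX, were under 0.1 FPKM on average in both groups.

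Other large falls were of genes outside the lists. FXYD4, a regulator of the sodium pump, had 1.49, 1.95 and 1.58 FPKM in siP300, against 18.1, 15.5 and 16.3 FPKM in siNC (−2.72). CNR2, a cannabinoid receptor, had 1.44, 1.73 and 1.55 FPKM in siP300, against 15.6, 15.2 and 14.9 FPKM in siNC (−2.66), and PTH1R, the receptor for parathyroid hormone, had 4.58, 4.24 and 4.60 FPKM in siP300, against 32.2, 33.0 and 26.9 FPKM in siNC (−2.53). GDPD2 (−2.53), the cancer-testis gene MAGEB2 (−2.40), the membrane repair protein DYSF (−2.36), the riboflavin transporter SLC52A3 (−2.34), the clotting protein VWF (−2.25) and the crystallin CRYBA4 (−2.20) followed, none with an overlap between the groups. RNU7-75P, a small nuclear RNA pseudogene of 62 bases, had 0, 1.80 and 0 FPKM in siP300, against 9.67, 14.5 and 2.82 FPKM in siNC, a noisy value for so short a gene. Among abundant genes, STRAP, an adaptor of the SMN complex and of TGF-β receptors, had 36.6, 37.3 and 37.7 FPKM in siP300, against 136, 133 and 139 FPKM in siNC (−1.84), and the membrane protein STOM had 28.8, 31.5 and 31.5 FPKM in siP300, against 112, 103 and 107 FPKM in siNC (−1.78). An abundant long non-coding RNA without a symbol, ENSG00000256969, picked after its values were seen, had 38.7, 35.4 and 37.3 FPKM in siP300, against 297, 293 and 289.7 FPKM in siNC (−2.95).

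**Figure D3:**
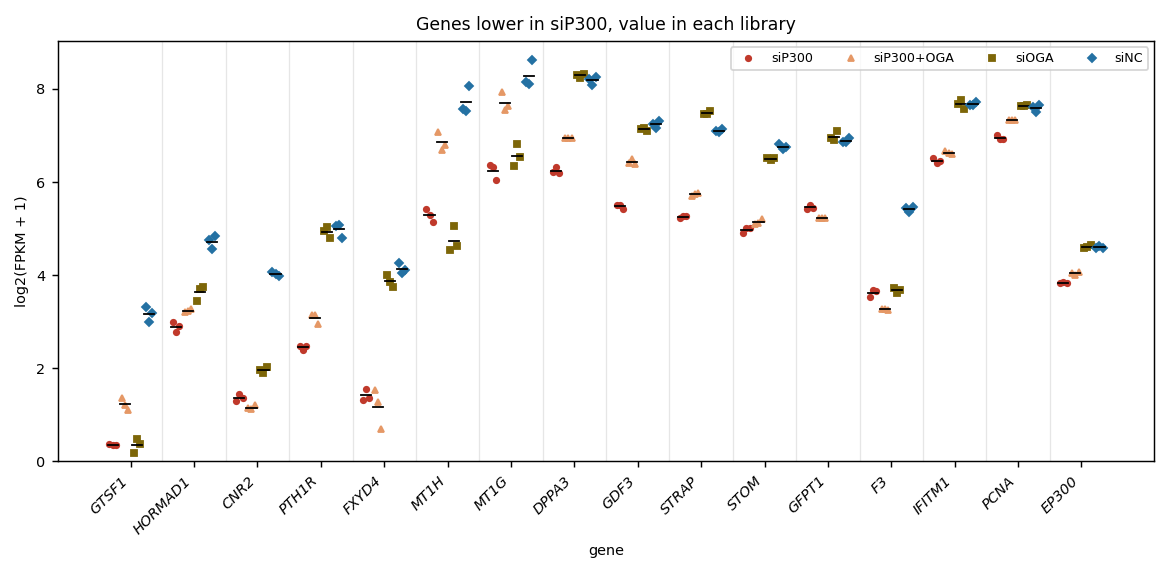
Level of 16 genes that were lower in siP300, as log2(FPKM + 1) on the y axis, with 1 point per library and a bar at the mean of each group of 3. The 3 siP300 points lie below the 3 siNC points for every gene. EP300, the target of the siRNA, is the last gene, at 13.2 to 13.4 FPKM in siP300, against at most 23.6 FPKM in siNC.

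Chromatin genes had small median differences and calls in both directions. Acetyltransferases and their partners had 6 of 16 higher and 8 lower (median −0.08). CITED2, which binds EP300 and CREBBP, had 14.7, 14.2 and 14.5 FPKM in siP300, against 6.23, 4.64 and 5.93 FPKM in siNC (1.24), and the coactivator NCOA2 rose by 0.51. HAT1 fell by 0.57 and KAT7 by 0.49, and KAT5 (0.01) and KAT6A (0.07) did not pass. Of 13 deacetylases 5 rose and 6 fell, and HDAC7 moved most, with 9.51, 9.15 and 9.29 FPKM in siP300, against 2.27, 2.35 and 1.96 FPKM in siNC (1.69). HDAC3 fell by 0.49. Among 16 bromodomain readers of acetyl-lysine, 6 rose and 6 fell. BRD2 had 31.9, 33.2 and 32.7 FPKM in siP300, against 20.7, 21.2 and 20.5 FPKM in siNC (0.62), and SMARCA2, an ATPase of the SWI/SNF remodeller, had 6.25, 6.58 and 6.57 FPKM in siP300, against 12.5, 13.3 and 13.2 FPKM in siNC (−0.91). Of Polycomb PRC2 genes 4 of 12 rose and 6 fell, led by the accessory subunit PHF19 (1.06), while SUZ12 did not pass (0.01). Of DNA methylation genes 6 of 12 rose and 5 fell. DNMT1 rose by 0.36, and TET1, which oxidises methylcytosine, had 29.1, 30.7 and 30.9 FPKM in siP300, against 47.8, 49.0 and 50.0 FPKM in siNC (−0.68).

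Genes of DNA replication fell together in 16 of 17 cases, with none higher (median −0.36). PCNA, the sliding clamp, had 129, 119.9 and 121 FPKM in siP300, against 194, 180.4 and 200.1 FPKM in siNC (−0.63), the licensing factor CDT1 had 59.3, 54.9 and 55.3 FPKM in siP300, against 93.2, 100.2 and 91.4 FPKM in siNC (−0.74), and E2F1 fell by 0.61. MCM3 did not pass (−0.03). Genes of G2 and mitosis had 2 of 19 higher, 6 lower and 11 not passed (median 0.00), and with quantile normalization 10 were higher. CCNB1, cyclin B1, had 99.8, 96.5 and 97.2 FPKM in siP300, against 97.5, 94.1 and 99.5 FPKM in siNC (0.01). MKI67, a proliferation antigen on chromosome 10, rose by 0.63. Of G1 regulators, CCND1 is given above, CDK6 rose by 0.90 and RB1 had 3.92, 4.21 and 5.22 FPKM in siP300, against 1.39, 1.52 and 1.5 FPKM in siNC (1.14). Of 18 p53 targets 10 rose and 5 fell (median 0.26), and above 1 FPKM in both groups 6 of 14 rose and 5 fell. TP53I3 rose by 1.36, MDM2 did not pass (0.07), and CDKN1A averaged 0.846 FPKM in siP300 and 0.403 FPKM in siNC.

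Cytosolic ribosomal protein genes were lower in 20 of 30 cases and higher in 1 (median −0.26), and with quantile normalization 12 were lower and 6 higher. RPL11 had 183, 168 and 172 FPKM in siP300, against 256, 255 and 259 FPKM in siNC (−0.56), and RPS18 fell by 0.48. These genes have many processed pseudogenes, so their counts are uncertain. Heat shock genes had 8 of 14 higher and none lower (median 0.51). HSPB1, a small heat shock protein that binds actin, had 299.8, 279.7 and 279.8 FPKM in siP300, against 119, 119.9 and 117 FPKM in siNC (1.26), and the constitutive chaperone HSPA8 rose by 0.68. HSPA1A (1.40) and HSPA1B (0.80) are nearly identical, and reads may be split between them. HSP90AA1 (−0.07) and HSP90AB1 (0.02) did not pass. The unfolded protein response did not share that direction, with 2 of 15 higher and 7 lower, and EDEM1 fell by 0.92. In the integrated stress response 4 of 17 rose and 9 fell, with ATF5 at 38.2, 38.2 and 39.7 FPKM in siP300, against 18.1, 18.1 and 17.5 FPKM in siNC (1.07).

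Metabolic lists were mostly divided. The hexosamine pathway makes UDP-GlcNAc, the donor that OGT uses to place O-GlcNAc on proteins. Its first and rate-limiting enzyme, GFPT1 (ENSG00000198380, chr2:69319780-69387250, minus strand), had 41.7, 44.2 and 42.8 FPKM in siP300, against 114, 114 and 123 FPKM in siNC (log2 difference −1.43 ± 0.0474 SE, adjusted p = 7.31e-10). GNPNAT1, the acetyltransferase of the next steps, had 11.9, 11.9 and 12.8 FPKM in siP300, against 21.2, 21 and 22.3 FPKM in siNC (−0.77), and UAP1, the last enzyme, fell by 0.62. GFPT2, the second form of the first enzyme, rose by 0.18, and OGA did not pass (38.4, 42.1 and 39.0 FPKM in siP300, against 40.1, 41.0 and 40.5 FPKM in siNC, −0.03). OGT fell by 0.26, but the difference was 0.01 once the median of its chromosome region was removed.

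Glycolysis had 8 of 18 higher and 9 lower (median −0.02). Isoforms differed in direction. HK1 rose by 0.76 and HK2 fell by 0.64, and PFKP rose by 1.16 while PFKL fell by 0.64. ALDOC fell by 1.14 and LDHA, which makes lactate, had 95.3, 95.1 and 98.1 FPKM in siP300, against 153, 148 and 156 FPKM in siNC (−0.66). Nuclear genes of oxidative phosphorylation had 6 of 29 higher and 9 lower. Of the 13 mitochondrially encoded proteins 8 were higher and none lower (median 0.46), as was the share of mitochondrial reads given above. MT-ND1 had 4104, 3881 and 4259 FPKM in siP300, against 2192, 2046 and 2367 FPKM in siNC (0.89). This direction depends on the scaling, since with quantile normalization 2 were higher and 5 lower, MT-CYB (0.81) among the lower ones. Cholesterol synthesis had 13 of 23 higher and 3 lower. Lysosomal genes had 12 of 19 higher and 4 lower, and above 1 FPKM in both groups 11 of 17 were higher.

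A ferritin gene and the metallothioneins changed strongly. FTL, the ferritin light chain that stores iron, had 2086, 2137 and 2171 FPKM in siP300, against 426, 407 and 443 FPKM in siNC (2.32 ± 0.0336 SE, adjusted p = 2.93e-12), the largest rise of any gene as abundant as this on average over the 6 libraries. UCHL1, a ubiquitin hydrolase of neurons and germ cells, had 167, 171 and 157 FPKM in siP300, against 44.9, 44.0 and 44.9 FPKM in siNC (1.86). Of 10 genes of metallothioneins, which bind zinc and copper, and of zinc handling, 9 fell, and above 1 FPKM in both groups 8 of 9. MT1G had 81.5, 79.0 and 64.8 FPKM in siP300, against 283, 273 and 391 FPKM in siNC (−2.04), and MT1H had 41.7, 38.1 and 34.3 FPKM in siP300, against 189.9, 184 and 268 FPKM in siNC (−2.44), with the third siNC library the highest in both. In siOGA MT1G averaged 94.7 FPKM and MT1H 26.1 FPKM, so these low levels were not particular to siP300. Of the 10 genes, 4 were higher and 2 lower in siP300 than in siOGA (median 0.09). MT1 genes are close copies, so reads may be split between them. The zinc exporter SLC30A1 rose by 0.51.

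Interferon-induced genes had 8 of 13 higher and 4 lower (median 0.44), and above 1 FPKM in both groups 5 of 9 rose. ISG15, a ubiquitin-like modifier, had 48.2, 46.6 and 42.6 FPKM in siP300, against 15.0, 15.0 and 13.5 FPKM in siNC (1.6), and IFI6 had 4.76, 4.96 and 4.50 FPKM in siP300, against 0.291, 0.180 and 0.0622 FPKM in siNC (2.29). IFITM1, which is high in pluripotent cells, had 91.0, 84.3 and 86.0 FPKM in siP300, against 201, 199.7 and 209 FPKM in siNC (−1.21), although its relative IFITM3 rose by 0.86. Of MHC class I genes 5 of 6 rose, and above 1 FPKM in both groups 3 of 4, with B2M, the shared light chain, at 15.3, 17.3 and 16.6 FPKM in siP300, against 6.53, 6.45 and 6.71 FPKM in siNC (1.20), while HLA-E fell by 0.70. HLA genes share sequence, so their counts are uncertain. Of imprinted genes 10 of 15 rose and 4 fell (median 0.34). PEG10, a retrotransposon-derived gene of the placenta, averaged 98.1 FPKM in siP300 and 19.4 FPKM in siNC (2.28) and NNAT had 39.7, 39.2 and 36.5 FPKM in siP300, against 11.2, 12.3 and 9.98 FPKM in siNC (1.70), while MEST fell by 1.07 and PHLDA2 by 0.97.

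**Figure D4:**
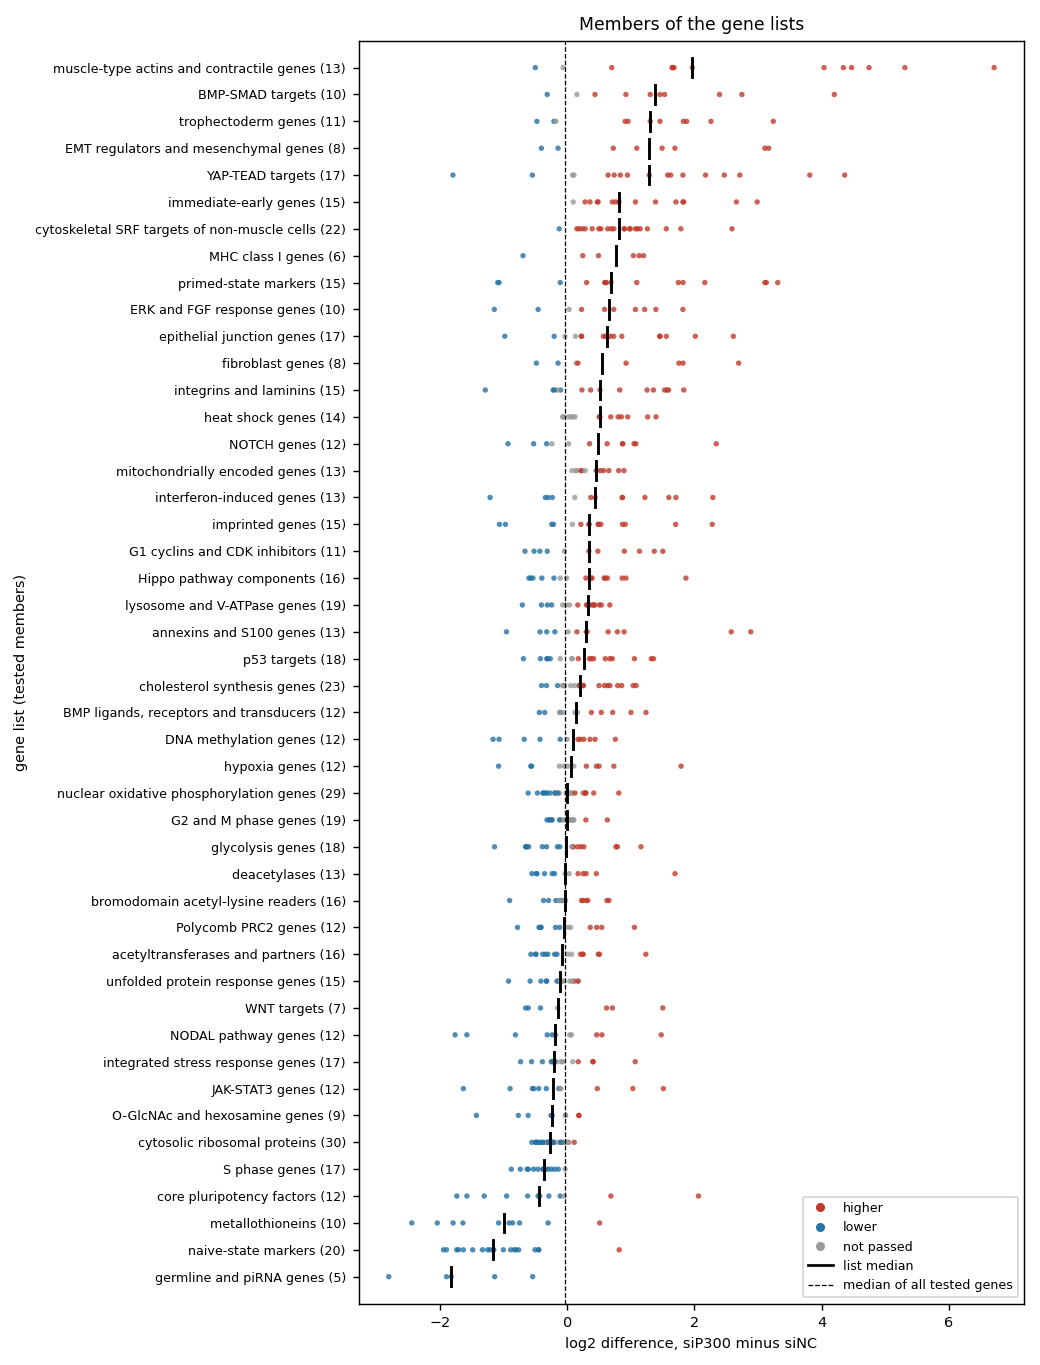
Log2 differences, siP300 minus siNC (x axis), of the tested members of each list with at least 5 of them, 1 row per list with the number tested. Red points were higher, blue points lower and grey points did not pass. Bars are list medians, from 1.97 for the contractile genes to −1.83 for the germline genes, and the dashed line is the median of all tested genes, −0.04. Both of these lists hold members that averaged under 1 FPKM in 1 group. Without them the medians were 1.66 for the contractile genes and −1.48 for the germline genes, the latter over 2 genes.

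Genes of some chromosome regions moved together. The genome was split into 20 Mb regions, and 153 regions with at least 20 tested genes were compared with all genes. The median of a region lay at least 0.2 above that of all genes in 15 regions and at least 0.2 below it in 14. The mitochondrial genome was counted among the 15 as 1 region, at 0.53 over 32 genes. The highest was the first 20 Mb of chromosome 10, at 0.62, with 45 of 59 genes higher and 3 lower. Its median relative to siNC was 0.56, 0.66 and 0.66 in the siP300 libraries, and −0.02 to 0.05 in the 3 siOGA and the 3 libraries labelled siP300+OGA. On chromosome 12 the region from 20 to 40 Mb lay at −0.42, with 7 of 51 genes higher and 36 lower, and that from 40 to 60 Mb at 0.38, with 122 of 183 higher and 23 lower. The last of these also stood at 0.40 to 0.45 relative to siNC in every siP300+OGA and siOGA library, so all 3 groups differed from siNC there. The region from 20 to 40 Mb stood at −0.38 to −0.42 in siP300+OGA and at 0.31 to 0.41 in siOGA. The X chromosome had 3 regions at −0.31 to −0.36. The causes were not tested.

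Differences with the median of the region removed are given here for some of the genes that lie in such regions, not for all. No such value is given for DPPA3 and TUBA1A, for example, which lie in such regions of chromosome 12. For PFKP the difference was then 0.53, against 1.16, and for IDI1, an enzyme of cholesterol synthesis, 0.41 against 1.04, both in the first 20 Mb of chromosome 10. KLF6 (1.08), VIM, vimentin (2.48, against 3.11), and GATA3 (0.68) lie there too. On chromosome 12, GDF3 stood at −1.45, STRAP at −1.53, VWF at −1.93 and GTSF1 at −3.17. POLA1, the replicative polymerase subunit on the X chromosome, stood at −0.55 against −0.88. All genes given such a value in this paragraph kept their direction, and all still passed.

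**Figure D5:**
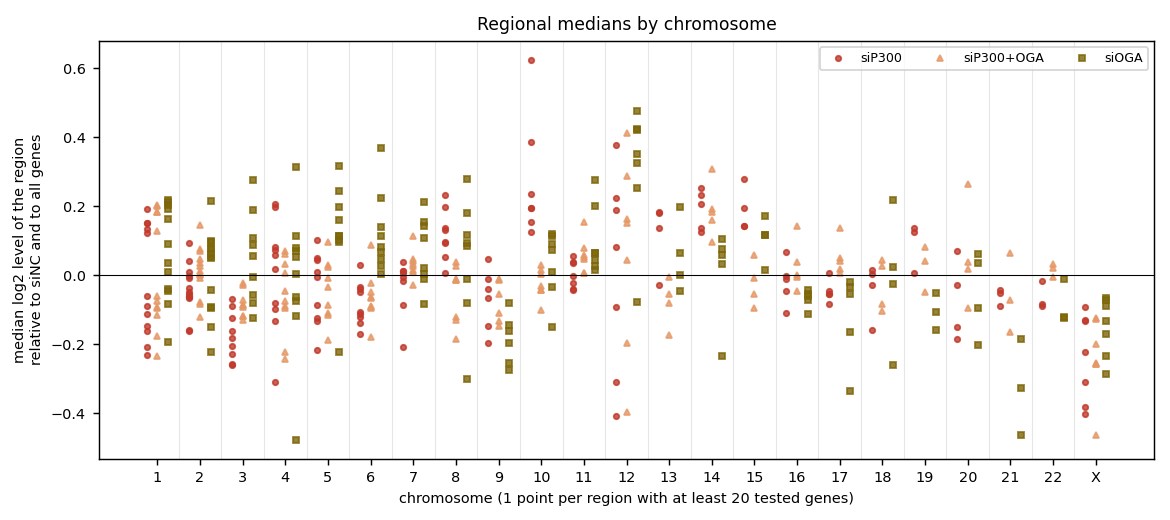
Median log2 level of each 20 Mb region with at least 20 tested genes, relative to siNC and to the median of all genes (y axis), by chromosome (x axis), averaged over the 3 libraries of siP300, siP300+OGA and siOGA. The highest siP300 point is the first region of chromosome 10, and the lowest siP300 points are on chromosomes 12 and X. The mitochondrial genome, counted as a region in the text, is not shown.

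The same genes were followed in the other knockdown, that of OGA, which removes O-GlcNAc from proteins. Against siOGA 73.9% of genes passed, and 4769 genes were higher in siP300 (36.1%) and 4988 lower (37.8%). Of the 11998 genes that averaged at least 1 FPKM in both siP300 and siNC, 4224 were higher in siP300 and 4697 lower. Contractile genes stood apart here too, with 11 of 13 higher and 1 lower (median 1.82). Among members that averaged at least 1 FPKM in both siP300 and siNC the count was 7 of 9 (median 1.32). ACTC1 had 149.7, 150.2 and 152 FPKM in siP300 and 2.06, 1.97 and 1.94 FPKM in siOGA, a difference of 5.67. NPPB had 57.8, 58.6 and 53.2 FPKM in siP300 and 0.914, 1.47 and 1.61 FPKM in siOGA (4.64). YAP targets had 12 of 17 higher and BMP targets 9 of 10, or 10 of 15 and 5 of 6 among such members. Naive markers had 12 of 20 lower and 4 higher, or 12 and 3 of 19 among such members, and DPPA3 was among those lower (−2.05). GTSF1 did not differ beyond its spread, with 0.278 FPKM in siP300 and 0.270 FPKM in siOGA (adjusted p = 0.906). Primed markers had 10 of 15 lower in siP300, or 6 of 10 among such members. Cytosolic ribosomal protein genes were lower in 29 of 30 cases (median −0.55) and cholesterol synthesis genes in 19 of 23 (−0.79). CCND2, cyclin D2, had 3.14, 3.32 and 2.79 FPKM in siP300 and 24.6, 25 and 26.3 FPKM in siOGA (−2.69), and RASD1, a RAS-like GTPase, 5.57 and 39.3 FPKM on average (−2.62). The other extremes of this comparison were the short RNA genes MIR656, higher by 4.4, and SNORD117, MIR548L, RN7SKP260 and RNU7-75P, lower by 2.56 to 2.98, in which few reads carry the value.

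The libraries labelled siP300+OGA were set against siP300, since both received the EP300 siRNA. Here 48.3% of genes passed, and 3519 genes were higher in siP300+OGA (26.6%) and 2865 lower (21.7%). Of the 11998 genes that averaged at least 1 FPKM in both siP300 and siNC, 3409 were higher in siP300+OGA and 2461 lower. The OGA transcript was not raised past the test there (44.6, 43.6 and 43.1 FPKM in siP300+OGA, against 38.4, 42.1 and 39.0 FPKM in siP300, adjusted p = 0.0634), which is why the group is given by its label. EP300 was at 15.4 FPKM in siP300+OGA and 13.3 FPKM in siP300 (0.20), a difference that passed (adjusted p = 0.000179), so its level was not equal in these groups. CREBBP was also higher in siP300+OGA, by 0.23 (adjusted p = 0.00018). Contractile genes were lower in 11 of 13 cases and higher in 1 (median −1.71). Leaving out the 4 that averaged under 1 FPKM in siNC and so were tested through their level in siP300, 7 of 9 were lower and 1 higher (median −1.47). ACTC1 had 1.71, 1.78 and 1.42 FPKM in siP300+OGA, against 149.7, 150.2 and 152 FPKM in siP300 (−5.85), and ACTA1 11.02 and 99.1 FPKM on average (−3.06). YAP targets were lower in 15 of 17 cases, with none higher (13 of 15 without such genes), and ANKRD1 had 0.295, 0.166 and 0.379 FPKM in siP300+OGA (−4.26). BMP targets were lower in 9 of 10 cases (5 of 6 without them), and immediate-early genes in 11 of 15 (8 of 11). Replication genes were higher in 15 of 17 cases and genes of metallothioneins and zinc handling in 9 of 10, or 8 of 9 above 1 FPKM in both siP300 and siNC. Naive markers were higher in 12 of 20 cases and lower in 5 (12 and 5 of 19 above 1 FPKM in both siP300 and siNC), with DPPA3 at 123, 123 and 123 FPKM in siP300+OGA, against 73.5, 78.5 and 72.1 FPKM in siP300 (0.71). Primed markers were divided, with 6 higher and 7 lower, or 4 and 4 of 10 above that minimum in both, and GFPT1 was at 36.4 FPKM in siP300+OGA and 42.9 FPKM in siP300. These comparisons share the siP300 libraries with the one against siNC, so their counts are not independent of it, and the counts per list do not show that the same genes moved.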

How the data were processed

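Expression was measured by RNA sequencing of poly(A) RNA. Per the labels' protocols, libraries were stranded (dUTP), carried unique molecular identifiers and were read as pairs of 150 bases. The deposited table holds FPKM values per gene made by the authors. Tools listed in the submitters' processing notes are StringTie 1.3.4d, HISAT2 2.0.4, DESeq2, cutadapt 1.9, edgeR and UMI-tools, with the build GRCh38. The sources used here do not state their roles, filters or strand setting. Every value was a whole multiple of a gene's smallest step (100% within 0.01), which gave the reads per library. FPKM is relative to the library, so a change in a few abundant genes shifts the others, and short or low genes rest on few reads.

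From the FPKM, log2(FPKM + 1) of the 13207 genes was fitted in limma 3.58.1 (R 4.3.3) with an intensity trend over all 12 libraries, since the groups share 1 estimate of spread. P-values were adjusted over all genes tested by Benjamini-Hochberg, with a threshold of 0.05. An exact permutation test of 3 against 3 libraries cannot go below p = 0.1 and was not used. Same-numbered libraries shared no clear deviation (correlations 0.00055, 0.0054 and −0.033), which does not show whether they were made in pairs. No label tells it. In data simulated with normal noise for siP300 against siNC, 200 of 13207 genes were changed, all with a siNC mean above 1 on the log2(FPKM + 1) scale. Here 97% of changes of 1 log2 unit and 84% of changes of 0.5 were found, with 9 false calls. In the real data 66.1% of genes passed, far more than were changed in the simulation. Adjusted p-values depend on that share, so these rates need not hold for the real data. Genes with a lower siNC mean were given no change, so the share found among them was not measured. Promoters are from RefSeq (GRCh38.p14).

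Genes were named by rule: EP300, CREBBP, the largest rises and falls with no overlap (among all genes, among genes above 100 FPKM and against siOGA), up to 4 leading members of each list, members against a list's median and list-defining members. Other genes were chosen after their values were seen. Members and lists were chosen with earlier results of these data known. 1 line of the table was empty as received and was left out.

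Alternatives changed the pseudocount (0.1 or 5), the minimum, the scaling, the trend, sample weights, the libraries fitted, the replicate block, a size threshold, regional medians, voom on recovered reads and each of the 6 libraries left out in turn. Some results are not reported here.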

Additional observations from a re-analysis of the deposited data

How the results depend on the processing

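Of 291 genes followed in siP300 against siNC, 269 kept their direction and their side of the threshold under every alternative that gave them a value, as did 5117 of 5171 single values. The size threshold gave none for single genes, and the minimum of 5 FPKM only for genes above it. With a minimum of 5 FPKM, 2059 genes were higher in siP300 than in siNC, 2344 higher and 3264 lower in siP300 than in siOGA, and 1470 lower in siP300+OGA than in siP300, where fewer genes were tested. With a difference of at least 1 also required, 635 were higher and 396 lower in siP300 than in siNC, 893 and 592 in siP300 than in siOGA, and 47 and 204 in siP300+OGA than in siP300. Genes with an interval within 0.25 of 0 numbered 5543 with a pseudocount of 5 and 16901 with no minimum.

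Quantile normalization turned the direction of HSP90AB1 (−0.33), LIN28A (0.085), MCM3 (0.15), MT-CYB (−0.19), MT-ND6 (−0.10) and TPM3 (0.00064). The removal of regional medians turned that of LEFTY2 (−0.16), LIN28A (0.12), MCM3 (0.10), MDM2 (−0.18) and OGT (0.013). The cause was not tested. MT-CYB, MT-ND6, OGT and TPM3 had passed before.

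With each of the 6 libraries left out in turn, 3693 to 3936 genes were higher and 4385 to 4517 lower in siP300 than in siNC. Against siOGA the ranges were 4424 to 4832 and 4761 to 4962, and for siP300+OGA against siP300 they were 3075 to 3510 and 2489 to 2908. Genes within the interval of 0 numbered 1852 to 1942. With the replicate number as a block, 4057 genes were higher and 4750 lower in siP300 than in siNC. No label says whether these numbers pair the libraries. Short genes and genes near the minimum rest on few reads, which limits the precision of their values.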

Other observations

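Hypoxia genes had no common direction in siP300, with 5 of 12 higher and 3 lower, and 4 and 3 of 11 above 1 FPKM in both groups. The mitophagy receptor BNIP3 had 33.3, 32.5 and 33.4 FPKM in siP300, against 48.1, 48.6 and 52.5 FPKM in siNC (−0.57), while VEGFA, the vascular growth factor, had 5.35, 5.36 and 5.14 FPKM in siP300, against 5.09, 5.54 and 5.12 FPKM in siNC (0.01) and did not pass. Of annexin and S100 genes 8 of 13 rose and 4 fell (median 0.30), and above 1 FPKM in both groups 7 of 12 rose. ANXA2 rose by 0.30 and its partner S100A10 fell by 0.20.

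Most genes of the embryonic lineages that follow pluripotency stayed under the minimum, namely 13 of 15 hypoblast and endoderm genes, 11 of 15 mesoderm genes and 11 of 13 neural genes. Among the mesoderm genes MIXL1, a homeobox gene of the primitive streak, had 4.43, 4.32 and 4.11 FPKM in siP300, against 0.776, 0.855 and 0.944 FPKM in siNC (1.51), with no overlap between the groups.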
